A study of Homo sapiens with 12 samples.

Results

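The genes described are 10 components of the proteoglycan and hyaluronan matrix, found by their symbols in the deposited count table: 5 small leucine-rich proteoglycans (DCN, LUM, BGN, FMOD and ASPN), the large proteoglycan VCAN, the 3 hyaluronan synthases (HAS1, HAS2 and HAS3) and the hyaluronan-binding protein TNFAIP6. They are 10 of 57500 listed genes, each symbol occurred once, and all 10 were among the 16251 genes tested.

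RNA was sequenced from MRC5 cells, which are human embryonic lung fibroblasts, in 12 libraries. Prol libraries came from proliferating cells that were not irradiated. Sen(IR) libraries came from cells given 20 Gy of X-rays, a dose that drives them into senescence (a lasting arrest of division), and collected 10 to 12 days later. Sen(IR)+UK5099 cells were irradiated in the same way and kept from day 1 in 100 μM UK5099, an inhibitor of the mitochondrial pyruvate carrier. Sen(IR)+CTPI2 cells were irradiated and kept from day 1 in CTPI2, an inhibitor of the mitochondrial citrate carrier SLC25A1, for which the methods list 15 or 30 μM without saying which was sequenced. Per the methods both inhibitors stayed in the medium for 12 days, and no separate collection day is given for treated cells. Each group held 3 libraries of the same cell line. The paper describes the replicates of its RNA-seq heatmaps as independent experiments or conditions, while the labels do not tie a library to a culture, so the p-values measure the spread between these libraries. The collection day of the Prol cells and the vehicle of the untreated groups were not given in the sources used here.

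Small leucine-rich proteoglycans are secreted proteins with short repeats rich in leucine, most of them carrying sulfated sugar chains, and they bind collagen fibrils and set their spacing and thickness. Hyaluronan is a long sugar polymer without a protein core, spun out through the plasma membrane by the hyaluronan synthases. Versican, the product of VCAN, binds hyaluronan and gives loose, water-rich matrix its bulk, and TSG-6, the product of TNFAIP6, transfers protein chains onto hyaluronan in inflamed tissue.

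Total counts ran from 20597736 to 28245693 per library. The fibroblast identity of the cells was checked with 8 markers, whose summed level was 19859 to 22970 CPM (counts relative to the library's scaled total) in the Prol libraries. The same sum was 19063 to 19552 CPM in Sen(IR), 16471 to 18273 CPM in Sen(IR)+CTPI2 and 9088 to 9814 CPM in Sen(IR)+UK5099. A set of 5 epithelial markers summed to 1.08 to 2.23 CPM in all libraries, with KRT5 and KRT14 at 3 counts or fewer in each library, and 5 cartilage cell markers to 4.88 to 14.5 CPM. The 4 leukocyte markers summed to 0.901 to 1.36 CPM in Prol and 4.07 to 6.80 CPM in the irradiated groups, where CD14 was higher in Sen(IR) than in Prol (3.32 against 0.192 CPM, log2 4.09, adjusted p = 5.06e-11), and CD3E was at 3 counts or fewer in each library. The 4 endothelial markers summed to 154 to 200 CPM in the Prol libraries, between 354 and 366 CPM in Sen(IR), between 206 and 236 CPM with UK5099 and between 298 and 329 CPM with CTPI2, almost wholly through TEK, while CDH5 stayed at 3 counts or fewer in every library of Prol, Sen(IR) and Sen(IR)+UK5099. The share of counts from mitochondrial genes was 3.81 to 4.23% in the UK5099 libraries and 2.36 to 3.28% in the other libraries. Prol replicate 2 stood apart for several of the genes below, and results that rest on it are given with and without it.

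Levels between genes were compared as CPM per kilobase (kb) of each gene's canonical transcript. In Prol the order was DCN (214 CPM per kb), LUM (118), VCAN (21.0), BGN (14.1), TNFAIP6 (6.73), HAS2 (4.32), FMOD (2.72), HAS3 (0.268), ASPN (0.0331) and HAS1 (0.0320). ASPN and HAS1 had 1 or 2 counts in each Prol library and could not be placed apart. In Sen(IR) the first 4 places were the same, with DCN at 199 CPM per kb, LUM at 133, VCAN at 20.7 and BGN at 10.2. FMOD (8.56 CPM per kb, SD 0.193) and TNFAIP6 (8.02, SD 0.373) came next in Sen(IR), and their libraries overlapped. HAS2 (0.495 CPM per kb), HAS3 (0.375), ASPN (0.274) and HAS1 (0.131) closed the order, so HAS2 had moved below FMOD. With UK5099 the genes from TNFAIP6 down were all under 1 CPM per kb: TNFAIP6 stood at 0.542, HAS3 at 0.261, HAS1 at 0.164, HAS2 at 0.0947 and ASPN at 0.0100. With CTPI2 the order was that of Sen(IR). The order of DCN and LUM depends on the length used. Per kb of all annotated exon bases (12941 for DCN, 2671 for LUM) LUM was the higher in each of the 4 groups, with 133 against 105 CPM per kb in Sen(IR).

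**Figure D1:**
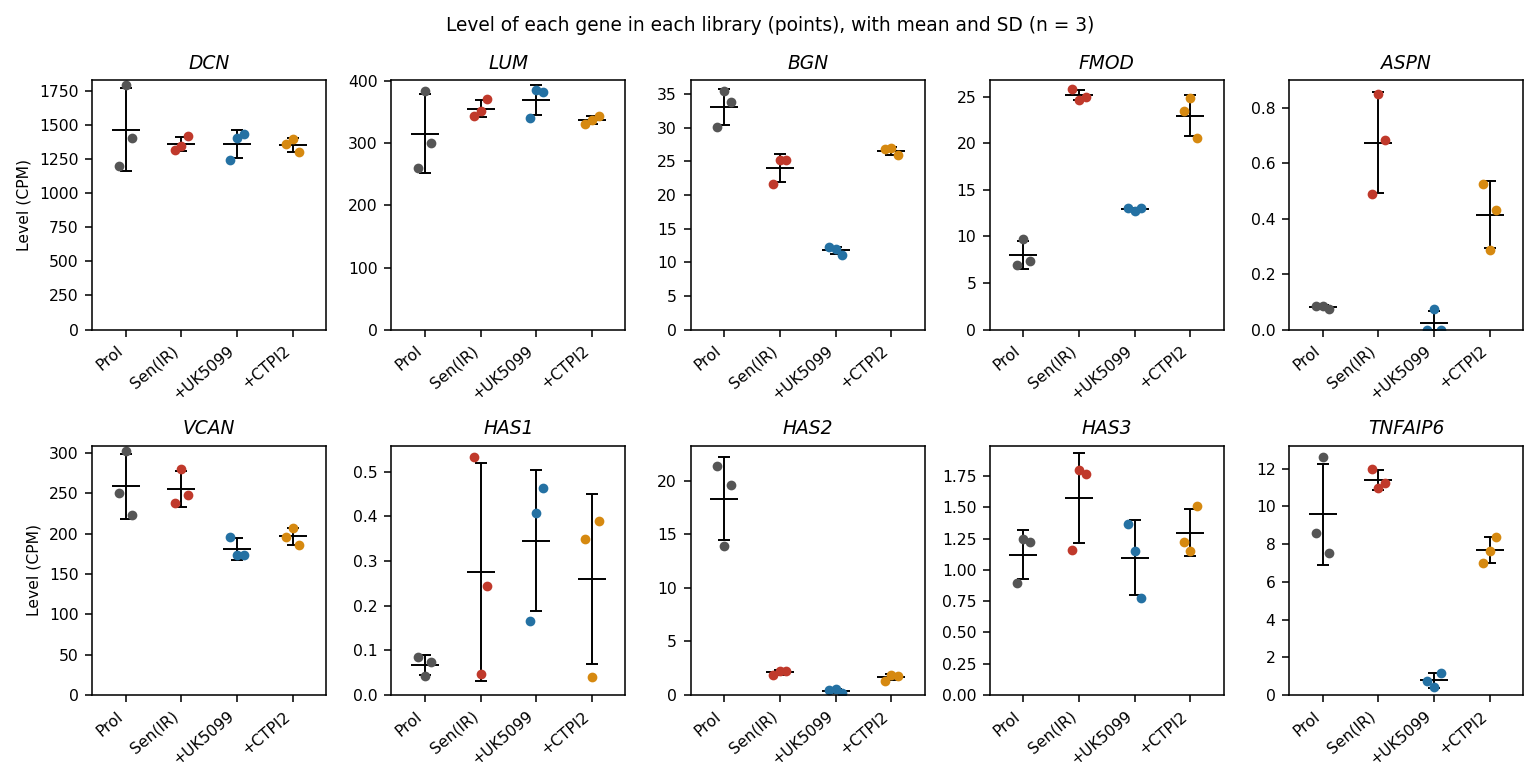
Level in CPM (vertical axis, linear, from 0) of each of the 10 genes in the 3 libraries of each group; points are libraries, the short bar is the mean and the whiskers are 1 SD, drawn no lower than 0. DCN and LUM overlap between the Sen(IR), UK5099 and CTPI2 groups, BGN, FMOD and TNFAIP6 are lower with UK5099 than in Sen(IR), and HAS2 is highest in the 3 Prol libraries.

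Comparing Sen(IR) with Prol asks how the matrix genes differ between senescent and dividing cells. To be called, a difference needed an adjusted p under 0.05 in edgeR's quasi-likelihood test (Benjamini-Hochberg, over all tested genes) and an absolute log2 fold change over 0.5. FMOD and ASPN rose, HAS2 fell, and the other 7 genes were not called. The 2 of 10 called higher stand beside 24.8% of all tested genes, and the 1 of 10 called lower beside 22.4%, so both shares lie near or under the background. The median log2 difference of the 10 genes was 0.22, against 0.01 over all genes. Of the genes checked for senescence and cell cycle, CDKN1A rose (log2 1.74) and MKI67, LMNB1 and CCNA2 fell (-4.42, -4.35 and -4.02). TEK was also called higher in Sen(IR) (360 CPM against 172 CPM in Prol, log2 1.06, adjusted p = 1.35e-11), as was CD14. Of the same marker lists, CD68 was called higher (1.67 against 0.922 CPM) and VWF was not called (0.569 against 0.315 CPM). PECAM1, CDH5, PTPRC and CD3E were too scarce to be tested. Of the fibroblast markers, COL1A2 (log2 0.53), COL6A1 (0.505) and THY1 (0.58) were called higher, and VIM (-0.79) and S100A4 (-1.32) lower. COL1A1, COL3A1 and PDGFRB were not called. The part of such markers in the values below was not tested.

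DCN encodes decorin, which binds collagen and holds TGF-beta in the matrix. It lies on the minus strand of chromosome 12 at 91140484 to 91183217 (GRCh38, as are all gene positions here). Its level was 1200, 1799 and 1404 CPM in the Prol libraries and 1320, 1345 and 1420 CPM in the Sen(IR) libraries. The Sen(IR) libraries fell inside the Prol range, which replicate 2 had widened upward. The log2 difference was -0.11 (SE 0.091, adjusted p = 0.300). Without Prol replicate 2 it was 0.06, the opposite sign, and it was 0.01 under upper-quartile scaling.

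LUM encodes lumican, which spaces collagen fibrils, and sits next to DCN on the same strand (chromosome 12, 91102629 to 91111494), 29 kb away with 0 protein-coding genes between. The level of LUM was 260, 385 and 301 CPM in Prol and 345, 352 and 372 CPM in Sen(IR). The groups overlapped only through Prol replicate 2, and the log2 difference was 0.18 (SE 0.088, adjusted p = 0.0827), which became 0.34 (adjusted p = 3.23e-05, still under the fold limit) without that library.

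The ratio of LUM to DCN within a library was steady in Prol and in Sen(IR). LUM stood at 55.5, 54.9 and 55.1% of the DCN level per kb in the Prol libraries and at 66.9, 67.1 and 67.2% in the Sen(IR) libraries. The ratio varied by an SD of 0.333 percentage points in Prol and 0.127 in Sen(IR), although DCN itself spread from 1200 to 1799 CPM in Prol. It was 68.4 to 70.5% with UK5099 (SD 1.16) and 61.8 to 67.9% with CTPI2 (SD 3.34), where replicate 3 had the lowest DCN and the highest LUM of its group and the highest ratio. The Prol range did not overlap any of the irradiated groups, and the difference of 11.9 percentage points between Sen(IR) and Prol had an exact permutation p of 0.1 (two-sided), the smallest that 3 libraries against 3 allow. The UK5099 range also lay above that of Sen(IR), with the same p from the same test.

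BGN encodes biglycan, the closest relative of decorin and, when released, an inflammatory signal (chromosome X, 153494980 to 153509546, plus strand). Its level was 30.1, 35.4 and 33.8 CPM in Prol and 21.7, 25.2 and 25.2 CPM in Sen(IR). All 3 Sen(IR) libraries lay below all 3 Prol libraries. The log2 difference of -0.46 (SE 0.079, adjusted p = 2.02e-05) passed the limit on p and stopped just short of the limit on fold; without Prol replicate 1 it was -0.53 and would be called.

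FMOD encodes fibromodulin, which binds collagen at the site lumican uses and guides its cross-linking (chromosome 1, 203340628 to 203351758, minus strand). The FMOD level was 6.90, 9.74 and 7.39 CPM in Prol and 25.8, 24.7 and 25.0 CPM in Sen(IR). The groups were far apart, and FMOD rose 3.15-fold (log2 1.66, SE 0.11, adjusted p = 4.07e-12). With BGN a little lower and FMOD higher, the BGN level per kb was 4.55 to 5.72 times that of FMOD in the Prol libraries and 1.05 to 1.28 times in the Sen(IR) libraries (exact permutation p = 0.1, two-sided, the smallest possible).

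ASPN encodes asporin, a relative of decorin that binds collagen and calcium (chromosome 9, 92456205 to 92482506, minus strand). It was near the limit of detection throughout, with 2 counts in each Prol library and 11, 18 and 14 counts in the Sen(IR) libraries. ASPN was called higher (fitted log2 2.97, SE 0.59, adjusted p = 0.000122). From the summed counts of 43 and 6 the ratio was 8.25 with a 95% interval of 3.50 to 23.7, which covers counting error only.

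VCAN encodes versican (chromosome 5, 83471618 to 83582303, plus strand), and 3.09% of its exon bases are shared with the opposite-strand gene VCAN-AS1, which had 5 counts or fewer in every library. The VCAN level was 250, 302 and 223 CPM in Prol and 238, 280 and 248 CPM in Sen(IR). The groups overlapped, with a log2 difference of -0.02 (SE 0.083, 95% interval -0.19 to 0.15, adjusted p = 0.858).

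HAS2 encodes the hyaluronan synthase that makes most of the polymer in fibroblasts (chromosome 8, 121612116 to 121641440, minus strand). Its level was 21.4, 13.9 and 19.7 CPM in Prol and 1.82, 2.23 and 2.25 CPM in Sen(IR), where it rested on 41 to 47 counts per library. Every Sen(IR) library lay far below every Prol library, Prol replicate 2 being the lowest of its group. HAS2 fell 8.73-fold (log2 -3.13, SE 0.19, adjusted p = 1.07e-12). The antisense gene HAS2-AS1 shares 5.92% of the HAS2 exon bases, and it had 22 to 37 counts per library in Prol and 2 to 11 in Sen(IR); the methods say that counting used strand only if the library kit kept it, and do not say whether it did.

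The other synthases stayed scarce. HAS1 (chromosome 19, 51713112 to 51723991, minus strand) had 2, 1 and 2 counts in Prol and 12, 1 and 5 counts in Sen(IR), a fitted log2 difference of 1.96 (SE 0.88, adjusted p = 0.0531). Without Sen(IR) replicate 2, the library with a single HAS1 count, it was 2.45 (adjusted p = 0.0141) and would be called. HAS3 (chromosome 16, 69105653 to 69118719, plus strand) was at 0.895, 1.24 and 1.23 CPM in Prol and 1.16, 1.80 and 1.76 CPM in Sen(IR). These ranges overlapped and the log2 difference was 0.48 (SE 0.28, adjusted p = 0.138). HAS3 shares 7.02% of its exon bases with the far more abundant opposite-strand gene CHTF8 (64.9 CPM in Sen(IR)), so reads from CHTF8 cannot be told apart there if the kit did not keep strand.

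Within the synthase family the HAS2 share was lower in Sen(IR). Its part of the summed HAS level per kb was 91.2 to 95.2% in Prol and 44.8 to 53.7% in Sen(IR), while the sum fell from a mean of 4.62 CPM per kb (SD 0.893) to 1.00 (SD 0.0590). HAS3 held 28.8 to 43.96% in Sen(IR), where HAS1 held 2.301 to 26.4%. The HAS2 share and the sum each differed with an exact permutation p of 0.1 (two-sided, the smallest possible) and no overlap.

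**Figure D2:**
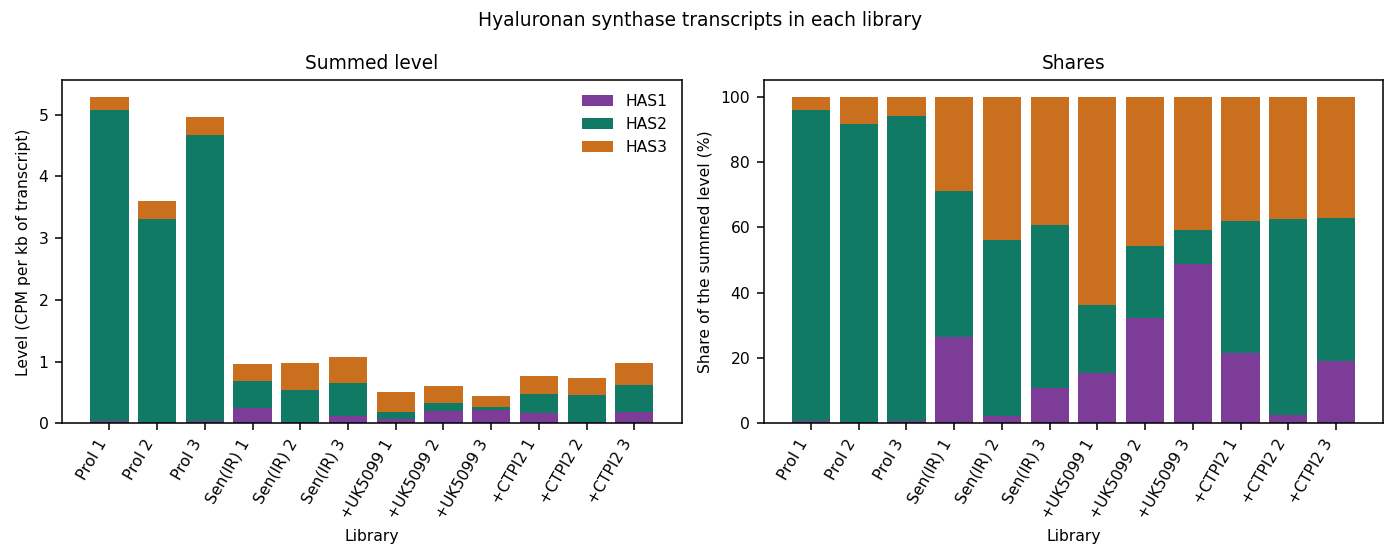
Summed level of HAS1, HAS2 and HAS3 in CPM per kb of transcript (left, bars from 0) and the share of each synthase in that sum in percent (right), 1 bar for each of the 12 libraries. HAS2 fills 91.2 to 95.2% of the Prol bars, about as much as the other 2 together in Sen(IR), and 10.1 to 21.9% with UK5099.

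TNFAIP6 encodes TSG-6, a gene switched on by inflammatory cytokines (chromosome 2, 151357592 to 151380046, plus strand). TNFAIP6 stood at 8.61, 12.6 and 7.504 CPM in Prol and 12, 10.99 and 11.2 CPM in Sen(IR). The Sen(IR) libraries lay between the Prol libraries, with replicate 2 above them and replicates 1 and 3 below. The log2 difference was 0.26 (SE 0.16, adjusted p = 0.169), and without Prol replicate 2 it was 0.50 (adjusted p = 0.00480) and would be called.

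UK5099 against Sen(IR) asks how the 10 genes differed in irradiated cells kept in UK5099. TNFAIP6, HAS2, ASPN, BGN and FMOD fell, and none of the 10 genes rose. The 5 of 10 called lower stand beside 12.1% of all tested genes, and the 0 of 10 called higher beside 8.76%. The median log2 difference of the 10 genes was -0.74, against 0.01 over all genes. In bulk libraries fewer cells of a kind and less RNA per cell cannot be told apart. Of the 8 fibroblast markers 6 fell, COL3A1 by 1.75 and COL1A1 by 1.56 on the log2 scale. PDGFRB (log2 0.05, adjusted p = 0.547) and VIM (-0.14, adjusted p = 0.0337) were not called. TEK fell too (218 CPM, log2 -0.73, adjusted p = 2.81e-08), as did the cartilage marker MATN3 (log2 -0.92). The other tested markers of these lists, VWF (log2 -0.01) and COL11A2 (0.07), were not called. Neither were the leukocyte markers CD14 (log2 -0.37) and CD68 (-0.37). The cell-cycle genes MKI67 (log2 -3.54), LMNB1 (-1.71) and CCNA2 (-0.76) also fell, and CDKN1A was not called (0.06). The part all these play in the values below was not tested.

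TNFAIP6 had the largest fold of the called genes other than ASPN. Its level was 0.744, 0.408 and 1.16 CPM in the UK5099 libraries (18, 11 and 30 counts), against 10.99 to 12 CPM in Sen(IR). No library came near the other group. The fall was 14.8-fold (log2 -3.89, SE 0.24, adjusted p = 7.87e-12), and it took TNFAIP6 below every Prol library too.

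HAS2 was at 0.455, 0.556 and 0.194 CPM with UK5099 (11, 15 and 5 counts), below all Sen(IR) libraries. It fell 5.15-fold further (log2 -2.36, SE 0.32, adjusted p = 2.81e-06). HAS1, with 4, 11 and 12 counts, and HAS3, at 1.36, 1.15 and 0.774 CPM, overlapped Sen(IR) and were not called (log2 0.31 with adjusted p = 0.726, and -0.52 with adjusted p = 0.142). The HAS2 share of the summed HAS level per kb was accordingly 10.1 to 21.9%, against 44.8 to 53.7% in Sen(IR), and HAS3 held the highest mean share (50.1%, SD 11.96). The summed level was 0.520 CPM per kb (SD 0.0742), about as much as HAS2 alone in Sen(IR).

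BGN and FMOD fell by like amounts. BGN stood at 12.2, 12.004 and 11.2 CPM with UK5099, which was 2.04-fold below Sen(IR) (log2 -1.03, SE 0.086, adjusted p = 1.64e-09). FMOD stood at 13.1, 12.7 and 13.0 CPM, 1.95-fold below Sen(IR) (log2 -0.96, SE 0.10, adjusted p = 5.41e-08). The UK5099 libraries of both genes lay below all Sen(IR) libraries, and FMOD remained above all Prol libraries. The BGN level per kb was 1.07 to 1.18 times that of FMOD, within the Sen(IR) range of 1.05 to 1.28 (exact permutation p = 0.6, two-sided).

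ASPN had 0, 2 and 0 counts with UK5099 and was called lower (fitted log2 -4.44, SE 0.71, adjusted p = 2.37e-05). From 43 and 2 summed counts, ASPN was 25.9 times higher in Sen(IR), with a 95% counting interval of 6.74 to 220. A count of 0 allows a level of up to 0.124 CPM in UK5099 replicate 1 and 0.116 CPM in replicate 3.

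VCAN was at 196, 174 and 173 CPM with UK5099, below all 3 Sen(IR) libraries. Its log2 difference of -0.497 (SE 0.083, adjusted p = 4.03e-05) missed the fold limit of 0.5 by the third decimal. With DESeq2 it was -0.50 and past the limit, as it was without Sen(IR) replicate 1 (-0.55), Sen(IR) replicate 3 (-0.52) or UK5099 replicate 1 (-0.56). A fold limit of 1 in place of 0.5 left 4 of the 10 genes called in this comparison, without FMOD.

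DCN and LUM, the most abundant of the 10, overlapped Sen(IR). DCN was at 1243, 1406 and 1433 CPM with UK5099 (log2 difference 0.00, 95% interval -0.19 to 0.19, adjusted p = 0.993). LUM was at 342, 386 and 382 CPM (0.05, interval -0.13 to 0.24, adjusted p = 0.647). The 5 small leucine-rich proteoglycans together summed to 351 CPM per kb (SD 13.5) in Sen(IR) and 347 (SD 24.0) with UK5099, since DCN and LUM held 56.6% and 38.0% of the sum in Sen(IR) and 57.3% and 39.98% with UK5099.

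**Figure D3:**
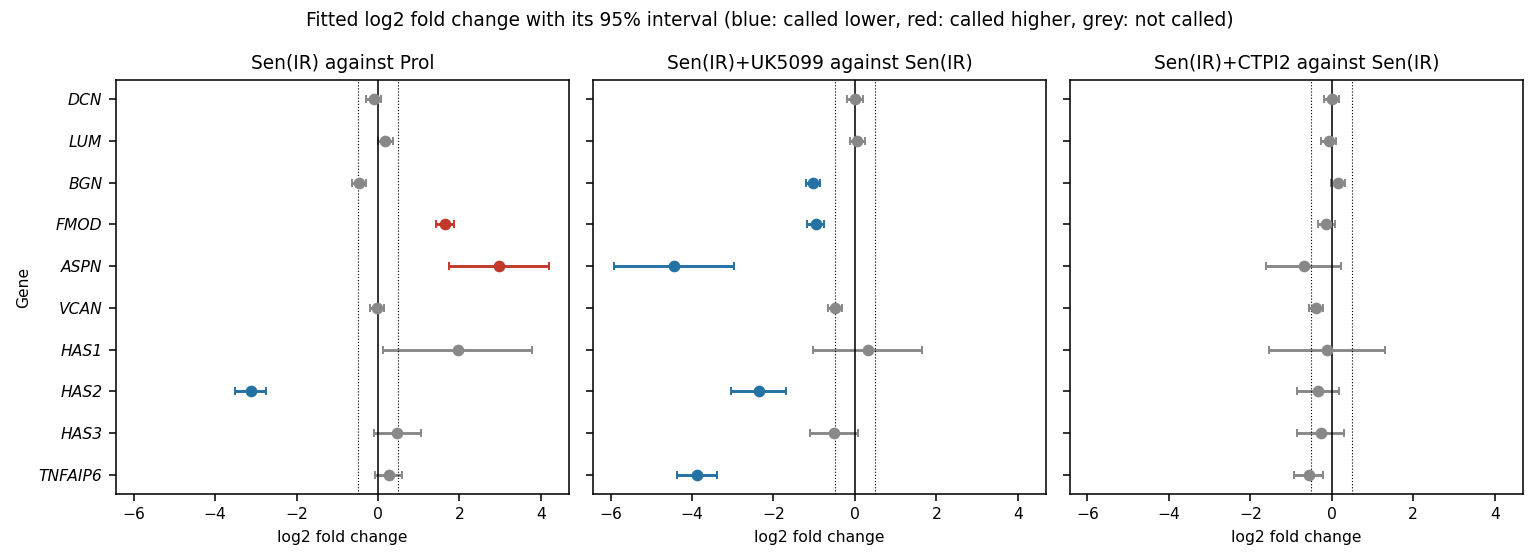
Fitted log2 fold change (horizontal axis) of each of the 10 genes in 3 comparisons, with its 95% interval from edgeR; blue points were called lower, red higher and grey neither, and dotted lines mark the fold limit of 0.5 either way. TNFAIP6, HAS2, ASPN, BGN and FMOD are blue in the UK5099 panel, and all 10 points are grey in the CTPI2 panel.

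CTPI2 against Sen(IR) asks the same for irradiated cells kept in CTPI2. None of the 10 genes was called by edgeR, where 0.0185% of all tested genes were called higher and 0.148% lower, so a count of 0 among 10 is what that background gives. VCAN and TNFAIP6 (2 genes) had an unadjusted p under 0.05, and DESeq2 also called 0. VCAN was at 196, 207 and 186 CPM with CTPI2, below all Sen(IR) libraries, with a log2 difference of -0.38 (SE 0.083, adjusted p = 0.0402) that stayed under the fold limit. TNFAIP6 was at 7.01, 7.63 and 8.39 CPM, also below all Sen(IR) libraries, with a log2 difference of -0.57 (SE 0.17, adjusted p = 0.231). In a fit of the 2 compared groups alone TNFAIP6 was called (adjusted p = 0.00554).

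None of the remaining 8 genes passed the limit on p with CTPI2. DCN was at 1363, 1400 and 1303 CPM and LUM at 331, 338 and 345 CPM, with log2 differences of -0.01 (95% interval -0.20 to 0.18) and -0.08 (interval -0.26 to 0.11). BGN was at 26.9, 26.9 and 25.9 CPM, above all Sen(IR) libraries (0.15, interval -0.02 to 0.31), and FMOD was at 23.5, 24.9 and 20.5 CPM (-0.13, interval -0.33 to 0.07). The BGN level per kb was 1.35 to 1.58 times that of FMOD, against 1.05 to 1.28 in Sen(IR) (exact permutation p = 0.1, two-sided). ASPN had 12, 7 and 10 counts, and its log2 difference of -0.70 (SE 0.45, interval -1.62 to 0.23, adjusted p = 0.824) passed the fold limit alone. HAS1 had 8, 1 and 9 counts (-0.12, interval -1.55 to 1.32). HAS2 was at 1.31, 1.86 and 1.82 CPM (-0.33, interval -0.84 to 0.18) and HAS3 at 1.23, 1.15 and 1.51 CPM (-0.27, interval -0.85 to 0.31). The intervals of HAS1, HAS2, HAS3 and ASPN are wide enough to hold differences past the fold limit.

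The inhibitors were also set against each other, with the reservation that they were used at different concentrations. BGN, FMOD, ASPN, HAS2 and TNFAIP6 were lower with UK5099 than with CTPI2, 5 of 10 beside 11.7% of all tested genes called lower, and 0 of 10 were higher beside 8.20%. The log2 differences were -3.31 for TNFAIP6 (SE 0.25, adjusted p = 2.77e-10), -2.03 for HAS2 (SE 0.33, adjusted p = 3.16e-05), -1.17 for BGN (SE 0.085, adjusted p = 1.66e-10) and -0.83 for FMOD (SE 0.10, adjusted p = 5.46e-07). ASPN, with 2 summed counts against 29, was 15.9 times higher with CTPI2 (95% counting interval 4.02 to 138). VCAN overlapped between the inhibitors (-0.12, interval -0.29 to 0.05). The LUM level per kb relative to DCN was higher with UK5099, at 68.4 to 70.5% against 61.8 to 67.9% (exact permutation p = 0.1, two-sided, the smallest possible).

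Against Prol, which both inhibitor groups share as a reference, UK5099 left 2 genes higher (FMOD and HAS1, beside 26.9% of all tested genes) and 4 lower (BGN, VCAN, HAS2 and TNFAIP6, beside 26.2%). HAS2 was 45.0-fold below Prol (log2 -5.49, SE 0.24, adjusted p = 2.49e-15), TNFAIP6 12.4-fold (-3.63, SE 0.24, adjusted p = 5.34e-12) and BGN 2.81-fold (-1.49, SE 0.083, adjusted p = 2.76e-13). FMOD was 1.62-fold above Prol (0.69, SE 0.11, adjusted p = 6.90e-06). HAS1 was called higher on 27 summed counts against 5, a ratio of 5.17 with a 95% counting interval of 1.96 to 17.2, and the call was lost without UK5099 replicate 3 (adjusted p = 0.0613). VCAN was 1.43-fold lower (-0.51, SE 0.083, adjusted p = 8.64e-06), and it dropped under the fold limit without Prol replicate 2 (-0.39), UK5099 replicate 2 (-0.49) or UK5099 replicate 3 (-0.48). ASPN, not called, would be called lower without UK5099 replicate 2 (adjusted p = 0.0325), the library that held both of its counts. The median log2 difference of the 10 genes was -0.31. It was -0.07 with HAS1 set to the end of its counting interval nearest to no change and ASPN set to no change. The ASPN counting interval (ratio 0.0315 to 1.78) spans no change.

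With CTPI2 the calls against Prol were those of Sen(IR): FMOD and ASPN higher, 2 of 10 beside 24.8% of all tested genes, and HAS2 lower, 1 of 10 beside 21.9%. FMOD was 2.88-fold higher (log2 1.52, SE 0.11, adjusted p = 1.78e-11) and HAS2 10.97-fold lower (-3.46, SE 0.19, adjusted p = 2.62e-13). ASPN was 5.07 times higher by summed counts (95% counting interval 2.07 to 14.9). BGN, at a log2 difference of -0.32 (adjusted p = 0.00106), and VCAN, at -0.40 (adjusted p = 0.000222), passed the limit on p and not the one on fold. HAS1 would be called higher without CTPI2 replicate 2 (log2 2.36, adjusted p = 0.0166), which had 1 HAS1 count.

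**Figure D4:**
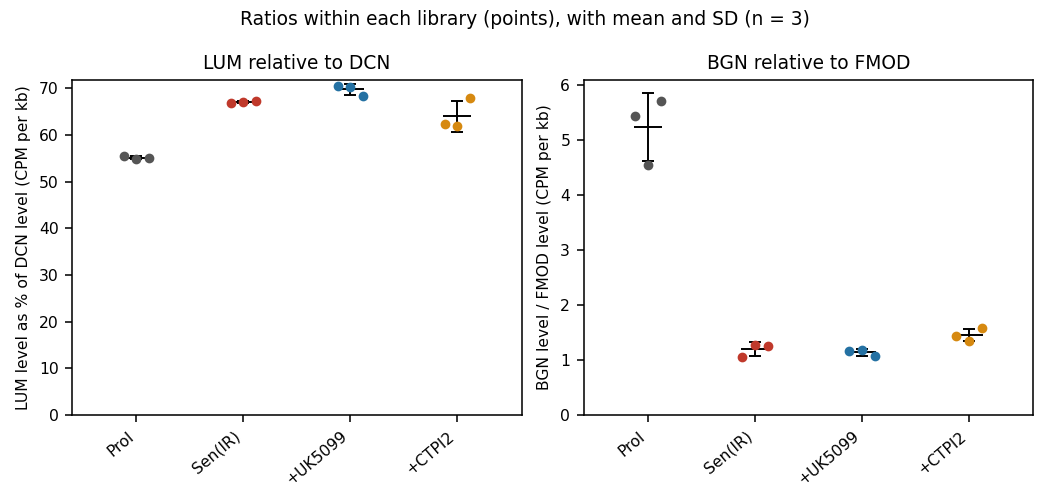
Level of LUM as a percentage of DCN (left) and of BGN as a multiple of FMOD (right), both in CPM per kb with axes from 0; points are the 3 libraries of each group, bars the mean and whiskers 1 SD. The Prol points stand apart in both panels, at 54.9 to 55.5% and at 4.55 to 5.72.

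Promoter windows are shown for BGN and TNFAIP6, which both fell with UK5099. Each run is the 250 bases before the RefSeq start (GRCh38.p14), 5′ to 3′ on the gene's strand: chrX:153494730-153494979, plus strand, for BGN and chr2:151357342-151357591, plus strand, for TNFAIP6. Capitals mark matches on either strand to 6 motifs: the TATA box (TATAAA), the AP-1 site (TGANTCA), the GC box (GGGCGG), the CCAAT box (CCAAT), the E-box (CACGTG) and the NF-kB site.
BGN: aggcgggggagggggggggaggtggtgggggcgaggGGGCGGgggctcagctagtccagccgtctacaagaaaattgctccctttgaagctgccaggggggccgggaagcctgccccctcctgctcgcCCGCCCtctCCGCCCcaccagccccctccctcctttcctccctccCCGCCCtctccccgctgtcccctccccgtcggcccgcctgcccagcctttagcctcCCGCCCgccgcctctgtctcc
TNFAIP6: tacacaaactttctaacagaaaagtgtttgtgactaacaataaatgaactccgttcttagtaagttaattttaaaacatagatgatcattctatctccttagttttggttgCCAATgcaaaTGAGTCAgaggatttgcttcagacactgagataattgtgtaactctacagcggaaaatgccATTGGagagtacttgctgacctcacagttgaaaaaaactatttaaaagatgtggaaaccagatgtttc

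The BGN window held 5 GC boxes, the farthest 214 and the nearest 16 bases before the start, and none of the other motifs. The TNFAIP6 window held 1 AP-1 site, 129 to 123 bases before the start, and 2 CCAAT boxes. Among 35116 RefSeq windows of this length, 42.6% held a GC box, 6.57% an AP-1 site and 32.0% a CCAAT box. No 2 matches overlapped in either window. The table matched 7 of the 10 genes, and DCN, LUM and HAS2 had no entry. Of the other 5, FMOD had 2 GC boxes, 1 TATA box and 1 CCAAT box, HAS3 1 GC box and 1 E-box, VCAN and HAS1 1 GC box each, and ASPN none of the 6 motifs. No NF-kB site was found in the 7 windows, where 9.96% of all windows held one. These matches describe letters only.

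The counts for the lists below stand beside 24.8% of all tested genes called higher and 22.4% lower in Sen(IR) against Prol, and 8.76% higher and 12.1% lower with UK5099 against Sen(IR). Among other small leucine-rich proteoglycans, 7 of 13 listed genes were tested. In Sen(IR) against Prol 3 rose and 0 fell, and with UK5099 against Sen(IR) 0 rose and 3 fell. TSKU, which encodes tsukushi, a secreted binder of growth factors, did both (log2 1.20 and -0.71, adjusted p = 4.16e-11 and 4.66e-07). PODN, which encodes podocan, was at 45.8 CPM in Prol, 63.2 in Sen(IR) and 19.2 with UK5099, where it fell by 1.72 on the log2 scale (adjusted p = 1.30e-12). ECM2 lies 11 kb from ASPN on chromosome 9 and, like it, was called higher in Sen(IR) (log2 1.06, adjusted p = 0.00116) and lower with UK5099 (-1.77, adjusted p = 2.25e-05), at 0.982, 2.05 and 0.598 CPM. It was named after its values were seen, as was PRELP, which encodes prolargin and was at 0.434 CPM in Prol and 1.07 in Sen(IR) (log2 1.28, adjusted p = 0.00994). OMD and OGN, which also lie near ASPN (31.7 and 51.5 kb), were too scarce to be tested.

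Of the 7 other hyalectans and link proteins, 2 were tested, and both fell with UK5099. HAPLN3, a link protein that clamps proteoglycans onto hyaluronan, was at 5.32 CPM in Sen(IR) and 3.63 with UK5099 (log2 -0.54, adjusted p = 0.0225). HAPLN1, the best known link protein, was named after its values were seen: it was at 0.887 CPM in Prol, 2.52 in Sen(IR) and 0.116 with UK5099 (adjusted p = 9.23e-06 and 5.86e-10).

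The hyaluronan receptors and binding partners (7 of 14 tested) had 3 higher and 2 lower calls in Sen(IR) against Prol. CD44, the main hyaluronan receptor, rose from 4112 to 6846 CPM (log2 0.74, adjusted p = 6.69e-13), and ITIH5, of the family whose chains TSG-6 transfers, from 1.49 to 29.2 CPM (log2 4.30, adjusted p = 1.02e-16). HMMR, a hyaluronan-binding protein of the mitotic spindle, fell from 110 to 9.97 CPM (log2 -3.46, adjusted p = 6.11e-19). With UK5099 against Sen(IR) 1 rose and 2 fell. The scarce ITIH3 (1.38 CPM in Prol and 0.233 in Sen(IR), adjusted p = 7.07e-06) and ITIH4 (0.123 CPM in Sen(IR) and 0.448 with UK5099, adjusted p = 0.0379) completed these calls and were named after their values were seen. PTX3, which encodes a pentraxin that binds TSG-6 in the hyaluronan matrix, rose from 164 CPM in Prol to 395 in Sen(IR) (log2 1.27, adjusted p = 4.97e-14). It then fell by 4.27 on the log2 scale to 20.5 CPM with UK5099 (adjusted p = 1.78e-21). HMMR also fell by 3.37 (adjusted p = 7.21e-14), while CD44 (-0.35) and ITIH5 (0.15) did not pass the limits.

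Genes that break hyaluronan down (8 of 10 tested) had 3 higher and 2 lower calls in Sen(IR) against Prol. The lysosomal HEXA rose by 1.20 on the log2 scale, HYAL3 by 1.05 and HYAL2, a hyaluronidase of the cell surface, by 1.01 (adjusted p = 4.73e-14, 2.88e-05 and 1.22e-11). CEMIP, a hyaluronan depolymerase of skin and synovial fibroblasts, fell from 716 to 277 CPM (log2 -1.37, adjusted p = 6.71e-15) and GUSB by 0.54 (adjusted p = 1.97e-06). With UK5099 1 gene fell, HYAL3 (log2 -0.55, adjusted p = 0.0128), and 0 rose.

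Enzymes that make the sugar precursors (7 of 7 tested) had 1 higher and 3 lower calls in Sen(IR) against Prol. GFPT1, the entry enzyme of the hexosamine route, rose by 0.53 on the log2 scale (adjusted p = 3.24e-10). GNPNAT1 fell by 1.08, UGDH, which makes UDP-glucuronate, by 0.57 and UAP1 by 0.55 (adjusted p = 5.26e-14, 2.39e-08 and 2.32e-06). With UK5099 only PGM3 of the same route was called (log2 -0.53, adjusted p = 1.42e-08).

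The enzymes of the linker and of chondroitin or dermatan sulfate chains, which are built on DCN, BGN and VCAN, formed the longest list (25 of 26 tested). In Sen(IR) against Prol 13 of 25 rose (24.8% of all tested genes did), led by CHPF (log2 1.87, adjusted p = 1.83e-16), CHST15 (1.502, adjusted p = 1.70e-06) and CSGALNACT1 (1.42, adjusted p = 7.70e-14). The 3 that fell were XYLT1, which starts the chain on the core protein (log2 -1.51, adjusted p = 8.82e-11), CHSY1 (-0.58) and SLC35D1 (-0.57). Its relative XYLT2, named after its values were seen, rose from 33.0 to 57.3 CPM (log2 0.80, adjusted p = 1.73e-10). With UK5099 against Sen(IR) 0 rose and 7 of 25 fell (12.1% of all tested genes did), CSGALNACT1 by 1.11, XYLT1 by 1.01 and CHST11 by 0.76 on the log2 scale (adjusted p = 1.81e-11, 2.87e-06 and 3.64e-05). For keratan sulfate chains, carried by LUM and FMOD, 2 of 6 genes were tested, and the sulfotransferase CHST2 rose in Sen(IR) (log2 1.29, adjusted p = 6.06e-09), with 0 calls with UK5099.

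The ADAMTS proteases that cut versican (5 of 6 tested) had 2 higher calls in Sen(IR) against Prol, ADAMTS9 (log2 1.05, adjusted p = 2.68e-05) and ADAMTS5 (0.98, adjusted p = 2.53e-06), and 1 lower, ADAMTS15 (-1.09, adjusted p = 0.000539). With UK5099 3 fell: ADAMTS5 by 1.48, ADAMTS9 by 1.28 and ADAMTS1 by 0.87 on the log2 scale (adjusted p = 2.57e-08, 6.94e-06 and 1.52e-09). Heparan sulfate and other proteoglycans (14 of 18 tested) had 5 higher and 4 lower calls in Sen(IR), among them GPC4 (1.56), SDC3 (0.80) and HSPG2 (0.79) higher and SDC1 (-1.08), SRGN (-0.80) and CSPG4 (-0.79) lower. With UK5099 GPC1 rose (0.64, adjusted p = 4.88e-10) while SRGN (-0.84), GPC4 (-0.54) and SDC1 (-0.51) fell. With CTPI2 against Sen(IR) no gene of these 9 pathway lists was called, as for the 10 genes themselves.

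**Figure D5:**
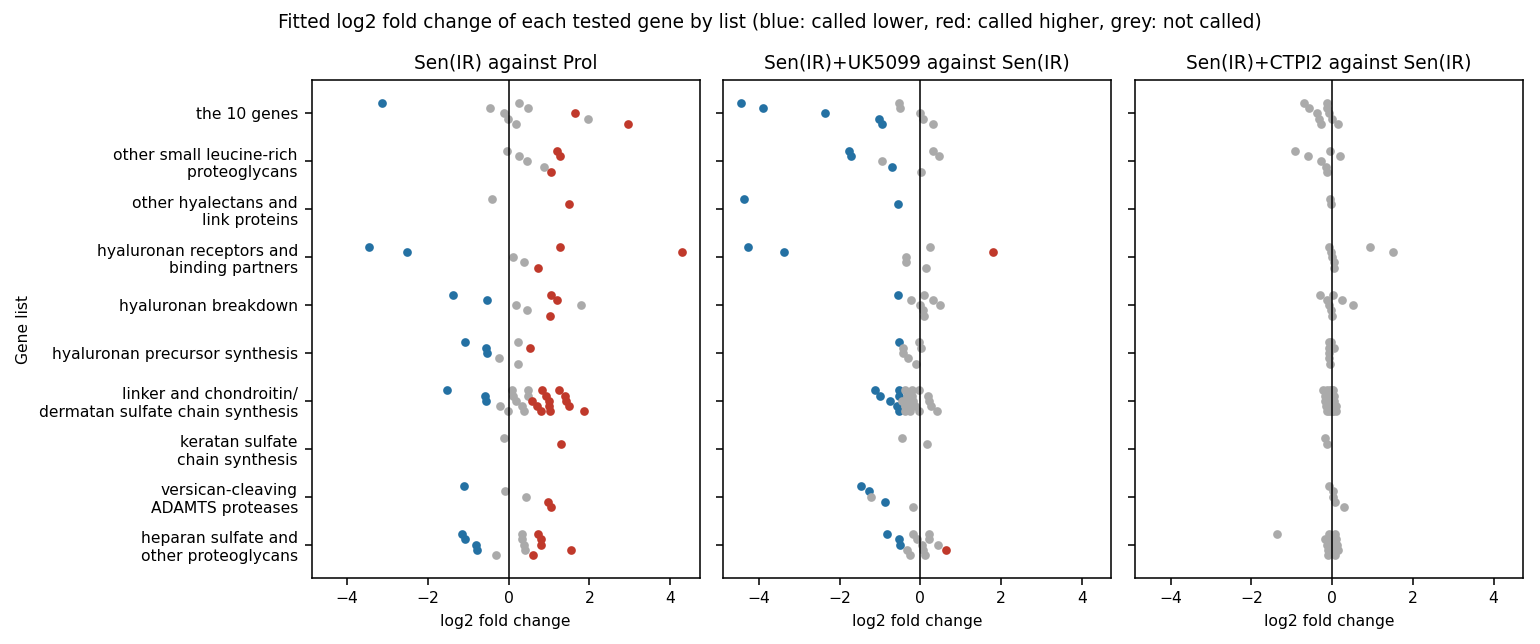
Fitted log2 fold change (horizontal axis) of each tested gene in the 10 genes and the 9 pathway lists (vertical axis, with a small vertical spread only to separate points) in 3 comparisons; blue points were called lower, red higher and grey neither. Calls go in both directions in Sen(IR) against Prol, mostly to the lower side with UK5099, and in neither direction with CTPI2.

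Likeness of pattern was measured over the 12 libraries as the root mean square difference of centred log2 CPM, among 12141 genes, for the 7 genes with a mean log2 CPM above 1. The genes most like DCN were ID2 (0.04995) and MARCKS (0.0739), and those most like LUM were PPM1M (0.0835) and PPP1R21 (0.0839). BGN was closest to PTGS1 (0.0996) and CAV1 (0.121), and FMOD to IGFBP4 (0.106) and ST3GAL5 (0.115). VCAN was closest to IL1RAP (0.136) and EPRS (0.137). HAS2, which varied most (SD 2.01 on the log2 scale), was closest to CDC6 (0.293) and ACTG2 (0.313), and TNFAIP6 to TMEM156 (0.352) and OAS3 (0.3602). None of the 10 genes was among the 2 nearest of another.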

How the data were processed

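RNA of 12 libraries (4 groups of 3) was measured by Illumina sequencing of paired ends. Per the methods and the submitters' processing notes, the authors used Trimmomatic 0.36 for trimming, STAR 2.5.2b for alignment to GRCh38, and featureCounts (Subread 1.5.2) to count unique reads in the exons of each gene. The deposited values are raw counts for 57500 genes. Multi-mapping reads were left out of these counts, and per the methods strand was used in counting only where the library preparation kept it, which is not stated for these libraries. Of the rows, 485 had a blank symbol but an identifier, and 0 columns belonged to other samples.

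Counts were fitted in R 4.3.3 with edgeR 4.0.16 (filterByExpr, TMM, glmQLFit, glmQLFTest) over all 12 libraries without a replicate term, with Benjamini-Hochberg adjustment over the 16251 genes tested, which hold 99.9% of the counts. CPM use TMM-scaled totals. The SE is the absolute log2 fold change divided by the square root of F, and 95% intervals use its degrees of freedom. Fitted log2 values of genes with 3 counts or fewer in all libraries of a group depend on the prior count, so ratios of summed counts with exact binomial intervals (counting error only) were added. The floor for a count of 0 is 3 counts of the scaled total. Lengths, positions and overlaps came from GENCODE 44 (GRCh38), matched by identifier, and promoter windows from RefSeq (GRCh38.p14). Totals of 20597736 to 28245693 make 3 counts 0.111 to 0.147 CPM.

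The 10 genes, the lists of related genes and markers, and the tests were chosen with earlier results of these data known. Named were all 10 genes, for each list the called genes with the largest change (up to 3 per direction) and a mean log2 CPM above 1, and for each of the 10 genes above that level the 2 genes most like it. Comparisons that use the same Sen(IR) or Prol libraries are not independent. Both tests were checked on simulated counts with known changes. The changes were placed only in well-counted genes, so the check does not cover counts as low as those of ASPN and HAS1. Alternatives were RLE and upper-quartile scaling, the DESeq2 1.42.0 Wald test, no filter, only the 2 compared groups, a replicate block, the unadjusted p, a fold limit of 1 and leaving out each library. Duplicate libraries were looked for by a chi-square test of counts, and none were found.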

Additional observations from a re-analysis of the deposited data

How the results depend on the processing

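Of the 22 called differences among the 60 tested (10 genes in 6 comparisons), 20 kept their direction and their call in every refit (other scalings, test, filter, groups, block and each library left out), and VCAN and HAS1 with UK5099 against Prol did not. None of the 22 changed sign. Low counts limit ASPN and HAS1, and 3 libraries per group limit every exact permutation p to 0.1. The number of the 10 genes called with CTPI2 against Sen(IR) was 0, and it was 1 in the fit of the 2 compared groups, with no filter on low counts and with the limit on the unadjusted p, each time TNFAIP6; the cause was not tested. Leaving out each library gave 3 to 4 calls for Sen(IR) against Prol, 5 to 6 for UK5099 against Sen(IR), 0 to 0 for CTPI2 against Sen(IR), 5 to 5 for UK5099 against CTPI2, 4 to 6 for UK5099 against Prol and 3 to 4 for CTPI2 against Prol.

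Upper-quartile scaling raised the median of all genes against Prol by 0.121 (log2) in Sen(IR), 0.140 with UK5099 and 0.112 with CTPI2, and moved the share of higher calls from 52.5 to 61.7% of called genes in Sen(IR). Under it, uncalled differences turned sign for DCN (0.0131 in Sen(IR) against Prol, 0.0174 in UK5099 against Sen(IR), 0.0306 in UK5099 against Prol), VCAN (0.10 in Sen(IR) against Prol) and HAS3 (0.10 in UK5099 against Prol). It also called HAS1 in Sen(IR) against Prol (2.08, adjusted p = 0.0395) and put VCAN in UK5099 against Prol under the fold limit (-0.37). Without 1 library, uncalled differences also turned sign: DCN ranged from -0.23 to 0.0647 in Sen(IR) against Prol, -0.0400 to 0.0601 in UK5099 against Sen(IR), -0.0309 to 0.0244 in CTPI2 against Sen(IR), -0.0332 to 0.0669 in UK5099 against CTPI2, -0.23 to 0.0636 in UK5099 against Prol and -0.24 to 0.0579 in CTPI2 against Prol. VCAN ranged from -0.11 to 0.11 in Sen(IR) against Prol, HAS3 from -0.22 to 0.16 in UK5099 against Prol and LUM from -0.0221 to 0.27 in CTPI2 against Prol. HAS1 ranged from -0.17 to 1.24 in UK5099 against Sen(IR), -0.60 to 0.81 in CTPI2 against Sen(IR) and -0.0824 to 0.85 in UK5099 against CTPI2.

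No pairing of the libraries by replicate number was seen (correlations of deviations -0.0511 to 0.0423 over 18 same-numbered pairs). Correlations taken over all tested genes can miss a pairing, so it was not excluded. A replicate block gave 3, 5, 0, 5, 6 and 3 calls among the 10 genes in the 6 comparisons, in the order above, the same counts as without it.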
